A study of Mus musculus with 8 samples.

Results

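The genes described here were 10 members of the interferon receptor and interferon regulatory factor (IRF) families, taken by symbol from the 54188 genes of a count table. They were the receptor chains Ifnar1, Ifnar2, Ifngr1 and Ifngr2 and the transcription factors Irf1, Irf2, Irf3, Irf5, Irf7 and Irf9. Each symbol was found once, and all 10 passed the filter on low counts that left 17650 genes for testing. The RNA came from sanroque mice on the C57BL/6 background, which are homozygous for the san allele of Roquin (san/san), develop lupus-like autoimmunity, and were described as female and 20 weeks old. CD11b+Gr-1hi cells, which the labels call G-MDSC and spell CD11+Gr-1hi, and CD11b+Gr-1lo cells, called M-MDSC, were sorted from 2 tissues, spleen (SP) and bone marrow (BM), and each of the 4 groups was sequenced in 2 libraries. Libraries 5 and 6 were SP Gr-1hi, 7 and 8 SP Gr-1lo, 9 and 10 BM Gr-1hi, and 11 and 12 BM Gr-1lo. All groups carried the san/san genotype, so none of the comparisons is with wild-type cells. The study describes the libraries of a group as independent biological replicates and the BM cells as autologous. Which libraries share a mouse is not given, so no pairing was used. The p-values measure the spread between these libraries.

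Type I interferons signal through a receptor made of IFNAR1 and IFNAR2, and IFN-gamma through one made of IFNGR1 and IFNGR2. The associated JAK kinases activate STAT proteins. STAT2 acts with IRF9 in the complex ISGF3 on interferon-stimulated response elements, whereas the response to IFN-gamma runs through gamma-activated sequences and induces IRF1. IRF3, IRF5 and IRF7 are switched on downstream of nucleic acid sensors and Toll-like receptors and drive the transcription of interferon and cytokine genes, and IRF2 is best known for competing with IRF1 at shared sites. Type I interferon is closely tied to lupus in patients and mice, and neutrophils and monocytes both respond to it.

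The 8 libraries held 33453580 to 68316154 counts each. A pair of checks bears on every comparison with SP. Xist, which is transcribed from the inactive X chromosome of female cells, had 12032 counts in library 5 and 9898 in library 7 but at most 5 in the other libraries. Ddx3y, which lies on the Y chromosome, had 0 counts in library 5, which allows up to 0.0904 CPM, and 1595 to 4902 counts in the other 7, so that 7 of the 8 libraries held Y-linked RNA, against the labelled sex, and library 7 held both. Values without libraries 5 and 7 are therefore given beside the named genes whose calls changed without them. That fit keeps a single library in each SP group, so its p-values rest on the spread between the BM libraries alone. Leaving out any library alone likewise keeps a single library in its group. In such fits the sizes can be compared, but a call gained, kept or lost is not a replicated result. Ly6g, a surface marker of neutrophils, was at 330.0 and 495 CPM in SP Gr-1hi and 685 and 801 in BM Gr-1hi. It was at most 8.23 CPM in Gr-1lo cells, the direction the sort would give. Csf1r, the receptor of monocytes for CSF-1, was at 436 to 754 CPM in Gr-1lo cells and 133 to 375 in Gr-1hi cells. For its protein, CD115, the study reports the reverse on the cell surface in spleen, high on Gr-1hi and low on Gr-1lo cells. CPM is the usual count per gene scaled to a common library total, with the totals adjusted by TMM.

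Summed markers of B cells, T cells, erythroid cells, plasma cells and macrophages were higher in SP than in BM in both sorts. Those of eosinophils and basophils overlapped, at 40.8 to 51.1 CPM in SP Gr-1hi and 31.4 to 53.6 in BM Gr-1hi. In Gr-1lo cells they were at 13.5 to 15.5 CPM in SP and 10.8 to 13.7 in BM. The 10 B cell markers summed to 385 to 559 CPM in SP Gr-1hi and 27.2 to 29.9 in BM Gr-1hi, and to 71.9 to 90.5 CPM in SP Gr-1lo and 11.7 to 12.4 in BM Gr-1lo. The 10 T cell markers summed to 74.5 to 118 CPM in SP Gr-1hi, 6.69 to 10.2 in BM Gr-1hi, 24.3 to 36.9 in SP Gr-1lo and 2.31 to 2.32 in BM Gr-1lo, with none of the B or T cell markers at 0 counts in any group. The 7 erythroid markers summed to 218 to 734 CPM in SP Gr-1hi, 35.9 to 44.1 in BM Gr-1hi, 167 to 233 in SP Gr-1lo and 7.70 to 8.29 in BM Gr-1lo, the 8 plasma cell markers to 308 to 431, 102 to 103, 319 to 328 and 228 to 250.1, and the 8 macrophage markers to 906 to 1081, 592 to 654, 317 to 343 and 234 to 285 CPM. Single genes made up most of some sums. Xbp1 had a mean of 225 CPM in SP Gr-1hi, 91.4 in BM Gr-1hi, 261 in SP Gr-1lo and 228 in BM Gr-1lo. It was not called between the Gr-1lo groups. The macrophage marker Slc40a1 had a mean of 751 CPM in SP Gr-1hi and 480 in BM Gr-1hi. Of 7 plasma cell markers tested, 7 were called higher in SP Gr-1hi and 6 in SP Gr-1lo. Of 8 macrophage markers, 7 and 4 were, and 0 of either list were lower. The 10 mature neutrophil markers were lower in SP Gr-1hi, at 69381 to 83378 CPM against 112566 to 119420 in BM Gr-1hi. Of these, 1 was called higher and 5 lower. In Gr-1lo cells their sum was higher in SP, at 6559 to 7810 CPM against 3789 to 3850 in BM, with 3 called higher and 0 lower. Of the 9 monocyte markers, 3 were called higher in SP than in BM Gr-1hi and 1 lower, with a median log2 fold change of 0.77. Their sum was 1138 to 1290 CPM in SP and 1385 to 1851 in BM, since the lower one, Ly6c2, named after its values were seen, was the most abundant, at 585 and 830.4 CPM in SP and 1133 and 1516 in BM. Lymphocytes express several of the members, and the part of these markers in the differences between SP and BM below was not tested.

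In GRCm38 and the GENCODE M21 annotation, 3 of the 4 receptor genes lie beside each other on the plus strand of chromosome 16: Ifnar2 at chr16:91372783-91405589, Ifnar1 at chr16:91485238-91507441 and Ifngr2 at chr16:91547072-91565623. Ifngr1 lies apart, at chr10:19591949-19610229. Irf1 is at chr11:53770014-53778374, Irf2 at chr8:46739732-46847458, Irf3 at chr7:44997648-45002848, Irf5 at chr6:29526625-29541871 and Irf9 at chr14:55603571-55610030, all on the plus strand, and Irf7 is at chr7:141262706-141266481 on the minus strand. Ifnar2 shares part of its sequence on the same strand with the predicted gene Gm21970, which had up to 4939 counts, so that its counts are uncertain. The end of Rnf31 overlaps the first bases of Irf9 on the same strand, and genes on the opposite strand overlap parts of Irf1, Irf2, Irf3, Irf5 and Irf7. The kit kept strand and the count table is named as stranded, but the strand setting of the counter is not given in the sources used here.

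The sites through which interferon signals act can be looked for in the promoters of the members themselves. RefSeq promoter windows of GRCm38.p6 (250 bases before to 50 bases after each start) were matched by symbol for all 10 members, with 12 windows in all since Irf1 and Irf9 had 2 starts each. A gamma-activated sequence, searched as TTCNNNGAA on both strands, was present in 4 of the 12 windows, against 8.30% of all 32851 promoters. The core of the response element of ISGF3 and the IRFs, searched in the same way as GAAANNGAA, was present in 1 window, that of Irf2, against 8.56% of promoters. The matches to the 2 motifs did not overlap. The 250 bases before the first start of Irf1 (chr11:53769764-53770013, plus strand) are shown because Irf1 had the highest level per length of the members in Gr-1hi cells, and the capitals mark the gamma-activated sequence at bases -90 to -82:
Irf1 promoter: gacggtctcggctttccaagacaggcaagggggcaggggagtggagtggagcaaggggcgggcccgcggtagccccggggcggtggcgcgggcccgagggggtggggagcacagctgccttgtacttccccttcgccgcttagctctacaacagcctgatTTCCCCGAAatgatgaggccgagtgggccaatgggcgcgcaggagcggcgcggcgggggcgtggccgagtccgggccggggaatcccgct

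The other matches are shown with 10 bases on either side where the window allowed, and with the motif in capitals, so that the sites of the receptor chains and of Irf2 can be compared with that of Irf1. They lie at chr16:91485200-91485228 (Ifnar1), chr16:91372559-91372587 (Ifnar2), and chr8:46739511-46739539 and chr8:46739495-46739522 (Irf2, whose 2 stretches overlap), each read on the plus strand.
Ifnar1, gamma-activated sequence: ggcgggggcgTTCACGGAAggggcggggc
Ifnar2, gamma-activated sequence: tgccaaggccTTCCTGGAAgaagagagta
Irf2, gamma-activated sequence: aaattgacttTTCCGAGAAatgatgaaag
Irf2, response element core: tggggaagtGAAAATGAAattgactttt
These matches describe letters in the windows, and no binding was measured in these libraries.

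The 10 members fell into 3 patterns across the 4 groups. Irf5 was higher in Gr-1lo cells of both tissues, and Ifngr1 in those of BM. Ifnar1, Ifngr2, Irf1, Irf2, Irf7 and Irf9 were higher in Gr-1hi cells. Between the subsets within a tissue, Ifnar2 and Irf3 differed by at most 0.31 on the log2 scale. Between SP and BM, Irf7 was called in both subsets and Irf2, Irf5 and Ifngr1 in Gr-1hi cells.

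**Figure D1:**
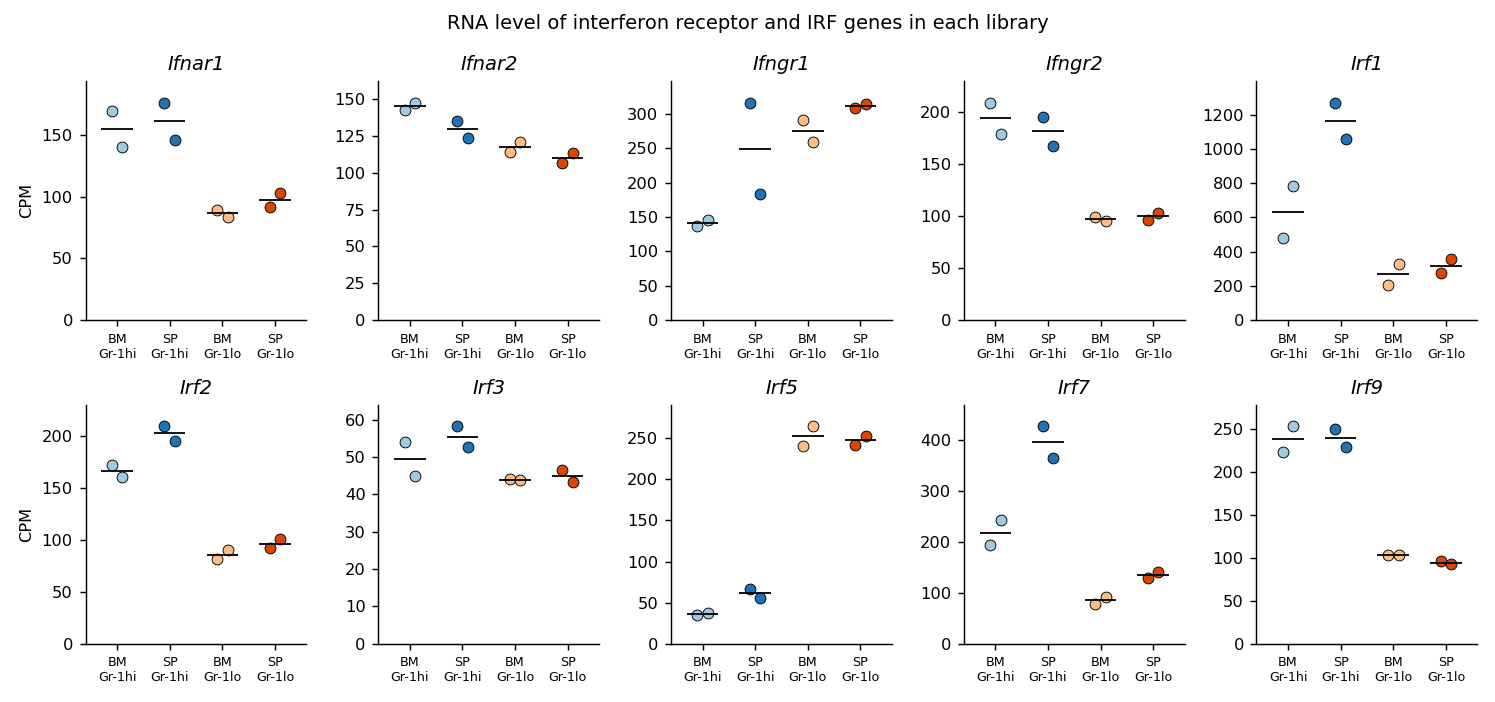
RNA level in CPM of each of the 10 members (1 panel per gene, each with its own axis from 0) in the 2 libraries of each group, with a line at the group mean. Irf5 was at 34.4 to 67.1 CPM in Gr-1hi and 240 to 264 in Gr-1lo libraries, whereas Irf1 reached 1271 CPM in SP Gr-1hi and stayed at or below 359 in Gr-1lo.

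A member was called at an adjusted p of at most 0.05 (edgeR quasi-likelihood test, Benjamini-Hochberg over all 17650 genes), with log2 fold changes given ± SE. Between SP and BM, 1 member was higher and 0 were lower in Gr-1lo cells, where 4.88% of all genes were higher and 0.697% lower. At an unadjusted p of 0.05 the count was also 1. In Gr-1hi cells, 4 members were higher and 0 lower in SP, where 20.1% of all genes were higher and 13.9% lower. The median log2 fold change of the members was 0.11 in Gr-1lo and 0.22 in Gr-1hi cells, and that of all genes -0.01 and 0.03. Between subsets, 7 members were higher and 2 lower in Gr-1hi cells of BM, where 34.5% of all genes were higher and 41.2% lower, and 8 were higher and 1 lower in SP, where the shares were 33.6% and 37.8%. The median of the members was 0.90 in BM and 0.79 in SP, and that of all genes -0.17 and -0.09 with TMM scaling but -0.03 and 0.04 with RLE scaling. With a 2-fold change also required between SP and BM, 0 members remained, as 4.06% of all genes did in Gr-1lo and 15.5% in Gr-1hi cells. With more than an 8-fold change and an adjusted p below 0.01 required between subsets, 0 members remained, as 16.7% of all genes did in BM and 7.37% in SP. The difference between the subsets in the SP effect (the interaction) was called for 1 member, Irf5, and for 16.4% of all genes.

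**Figure D2:**
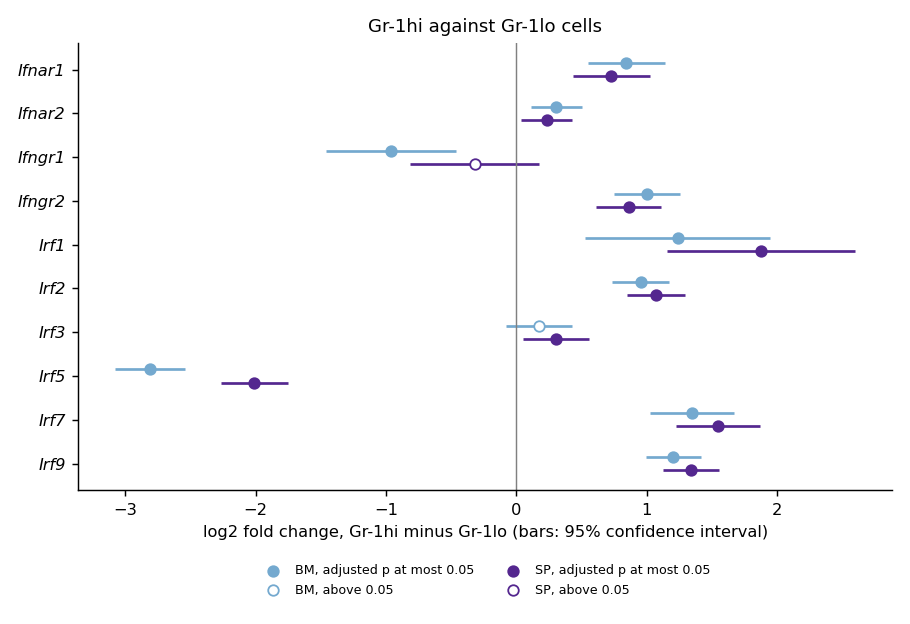
Log2 fold change of Gr-1hi over Gr-1lo cells for the 10 members in BM and in SP, with 95% confidence intervals; filled points have an adjusted p of at most 0.05. Irf5 lay at -2.81 in BM and -2.01 in SP, Ifngr1 below 0 in both tissues, and the other 8 members above 0.

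Among the receptor chains, Ifnar1, the low-affinity chain of the type I receptor, was at 176 and 146 CPM in SP Gr-1hi, 170 and 140 in BM Gr-1hi, 91.3 and 103 in SP Gr-1lo, and 89.2 and 83.5 in BM Gr-1lo. The Gr-1hi libraries lay above all Gr-1lo libraries in both tissues. Its log2 fold change between subsets was 0.84 ± 0.13 in BM (adjusted p = 0.000342) and 0.73 ± 0.13 in SP (adjusted p = 0.00096). Ifnar2, the high-affinity chain, was at 135 and 124 CPM in SP Gr-1hi, 143 and 148 in BM Gr-1hi, 107 and 113 in SP Gr-1lo, and 114 and 121 in BM Gr-1lo. Its libraries also kept apart by subset, but the log2 fold change was only 0.31 ± 0.09 in BM (adjusted p = 0.0103) and 0.23 ± 0.09 in SP (adjusted p = 0.0361). On quantile-normalized TPM the direction turned, to -0.11 in BM and -0.09 in SP, and without libraries 5 and 7 the SP value was 0.10 (adjusted p = 0.492). Neither chain was called between SP and BM, with log2 fold changes of 0.05 to 0.17 for Ifnar1 and -0.17 to -0.09 for Ifnar2.

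The chains of the IFN-gamma receptor went in opposite directions. Ifngr2, the signalling chain, was at 195 and 168 CPM in SP Gr-1hi, 209 and 179 in BM Gr-1hi, 96.6 and 103 in SP Gr-1lo, and 98.8 and 94.97 in BM Gr-1lo. The log2 fold change between subsets was 1.003 ± 0.11 in BM (adjusted p = 3.88e-05) and 0.86 ± 0.11 in SP (adjusted p = 0.000128), with no overlap of libraries. Ifngr1, the ligand-binding chain, was at 137 and 145 CPM in BM Gr-1hi and 291 and 259 in BM Gr-1lo, a log2 fold change of -0.96 ± 0.22 (adjusted p = 0.00378). In SP, the Gr-1lo libraries were at 308 and 314 CPM, whereas the Gr-1hi libraries stood apart from each other, at 316 in library 5 and 183 in library 6. The SP difference between subsets was thus not called with both libraries (-0.32 ± 0.21, adjusted p = 0.211). It was -0.79 without library 5 and -0.80 without libraries 5 and 7, where library 6 alone stood for SP Gr-1hi.

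Ifngr1 was also the receptor chain called between SP and BM. In Gr-1hi cells both SP libraries lay above both BM libraries, and the log2 fold change was 0.82 ± 0.22 (adjusted p = 0.0216). The size rested on library 5: without it the value was 0.29 (adjusted p = 0.0675), and without libraries 5 and 7 it was 0.39 (adjusted p = 0.056). The call was also lost without library 9 (adjusted p = 0.12) or library 10 (adjusted p = 0.0981) and in a fit of the 4 libraries compared (adjusted p = 0.0513). In Gr-1lo cells the value was 0.18 ± 0.21 (adjusted p = 0.695), and the difference between the 2 effects, 0.64 ± 0.30, was not called (adjusted p = 0.189), with a 95% confidence interval of -0.06 to 1.34.

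The ratio of the 2 chains within a library does not depend on scaling. Ifngr1 had 2.94 and 2.73 times the counts of Ifngr2 in BM Gr-1lo and 3.19 and 3.03 times in SP Gr-1lo, but 0.656 and 0.810 times in BM Gr-1hi. The SP Gr-1hi libraries lay between, at 1.62 in library 5 and 1.09 in library 6. The ratio of Ifnar1 to Ifnar2 moved less and the other way, from 0.691 and 0.782 in BM Gr-1lo and 0.854 and 0.908 in SP Gr-1lo to 0.950 and 1.19 in BM Gr-1hi and 1.18 and 1.30 in SP Gr-1hi. For both ratios the Gr-1hi and Gr-1lo libraries did not overlap. These ratios were chosen after the values had been seen, and with 2 libraries against 2 they were given no test.

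**Figure D3:**
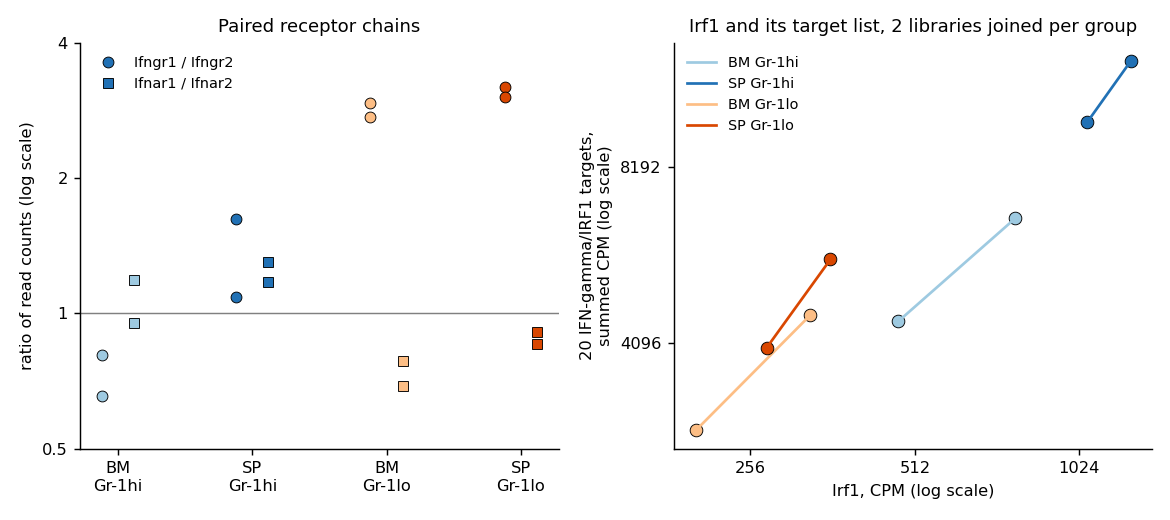
Left, ratio of read counts of Ifngr1 to Ifngr2 (circles) and of Ifnar1 to Ifnar2 (squares) in each library by group, on a log scale with a line at 1; right, Irf1 in CPM against the summed CPM of the 20 genes of the IFN-gamma and IRF1 target list, both on log scales, with the 2 libraries of a group joined. The Ifngr1 to Ifngr2 ratio was at least 2.73 in Gr-1lo libraries and at most 1.62 in Gr-1hi libraries, and in each group the library with more Irf1 had the higher target sum.

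Among the transcription factors, Irf1, which IFN-gamma induces and which activates antigen presentation and GTPase genes, was at 1271 and 1058 CPM in SP Gr-1hi, 477 and 781 in BM Gr-1hi, 274 and 359 in SP Gr-1lo, and 203 and 330 in BM Gr-1lo. All Gr-1hi libraries lay above all Gr-1lo libraries. The log2 fold change between subsets was 1.24 ± 0.30 in BM (adjusted p = 0.00688) and 1.88 ± 0.31 in SP (adjusted p = 0.000998). Without libraries 5 and 7 neither was called, at 1.19 in BM (adjusted p = 0.071) and 1.54 in SP (adjusted p = 0.104). Between SP and BM in Gr-1hi cells, the groups did not overlap and the log2 fold change was 0.89 ± 0.30, with an adjusted p of 0.0571 that missed the threshold. It passed in 7 of 15 alternatives, among them DESeq2 (0.83, adjusted p = 0.0119) and the fit of the 4 libraries compared (0.90, adjusted p = 0.038), and not without libraries 5 and 7 (0.77, adjusted p = 0.393). In Gr-1lo cells the libraries of both tissues overlapped, and the value was 0.25 ± 0.30 (adjusted p = 0.698).

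Irf2, the competitor of IRF1, was at 210 and 196 CPM in SP Gr-1hi, 173 and 160 in BM Gr-1hi, 92.1 and 101 in SP Gr-1lo, and 81.4 and 90.6 in BM Gr-1lo. It was higher in Gr-1hi cells by 0.95 ± 0.10 in BM (adjusted p = 2.22e-05) and 1.07 ± 0.10 in SP (adjusted p = 1.56e-05) on the log2 scale. The rise in SP over BM in Gr-1hi cells was 0.28 ± 0.10 with an adjusted p of 0.0498, and it was called in only 2 of 15 alternatives (0.25 and adjusted p = 0.201 without libraries 5 and 7). Counts of Irf1 were 6.06 and 5.396 times those of Irf2 in SP Gr-1hi, 2.76 and 4.87 times in BM Gr-1hi, 2.98 and 3.56 times in SP Gr-1lo, and 2.4995 and 3.64 times in BM Gr-1lo. The SP Gr-1hi libraries thus had the highest ratios, and the other 3 groups overlapped.

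Irf7, the factor that amplifies type I interferon production and is itself an interferon-stimulated gene, was the only member called between SP and BM in both subsets. It was at 426 and 364 CPM in SP Gr-1hi, 193 and 243 in BM Gr-1hi, 129 and 142 in SP Gr-1lo, and 78.9 and 92.3 in BM Gr-1lo. No group overlapped another, and the order was SP Gr-1hi, BM Gr-1hi, SP Gr-1lo, BM Gr-1lo. The log2 fold change of SP over BM was 0.86 ± 0.14 in Gr-1hi (adjusted p = 0.00284) and 0.66 ± 0.14 in Gr-1lo cells (adjusted p = 0.0292), and the difference between these effects, 0.20 ± 0.20, was not called (adjusted p = 0.53; 95% confidence interval -0.25 to 0.65). In Gr-1hi cells the call held in all 15 alternatives, including 0.75 without libraries 5 and 7 (adjusted p = 0.0183). In Gr-1lo cells the direction held in all 15 and the call in 11, since it was lost without library 7 (adjusted p = 0.0724), library 8 (adjusted p = 0.195), library 11 (adjusted p = 0.183) or library 12 (adjusted p = 0.0727), whereas without libraries 5 and 7 together it was 0.71 (adjusted p = 0.0483). Between subsets Irf7 was higher in Gr-1hi cells by 1.35 ± 0.14 in BM (adjusted p = 2.79e-05) and 1.55 ± 0.14 in SP (adjusted p = 1.72e-05).

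Irf3, the factor held ready in the cytoplasm for nucleic acid sensors, varied least. It was at 58.2 and 52.6 CPM in SP Gr-1hi, 54.0 and 44.9 in BM Gr-1hi, 46.4 and 43.2 in SP Gr-1lo, and 44.1 and 43.8 in BM Gr-1lo. Between subsets it was called in SP (0.31 ± 0.11, adjusted p = 0.0335) and not in BM (0.17 ± 0.11, adjusted p = 0.188), and the SP call held in 7 of 15 alternatives (0.26 and adjusted p = 0.188 without libraries 5 and 7). It was not called between SP and BM in either subset. The counts of Irf7 were 7.33 and 6.91 times those of Irf3 in SP Gr-1hi, 3.57 and 5.42 times in BM Gr-1hi, 2.78 and 3.28 times in SP Gr-1lo, and 1.79 and 2.11 times in BM Gr-1lo.

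Irf5, which acts downstream of Toll-like receptors in monocytes, macrophages and B cells and is a lupus risk gene in humans, had the largest difference of the members between subsets. It was at 242 and 253 CPM in SP Gr-1lo and 240 and 264 in BM Gr-1lo, but 67.1 and 55.8 in SP Gr-1hi and 34.4 and 37.5 in BM Gr-1hi. In Gr-1hi cells it was 7.01-fold lower in BM (log2 -2.81 ± 0.12, adjusted p = 2.05e-07) and 4.03-fold lower in SP (-2.01 ± 0.11, adjusted p = 1.65e-06), and both calls held in all 15 alternatives. In Gr-1hi cells it rose in SP over BM by 0.77 ± 0.11 (adjusted p = 0.00171; called in all 15 alternatives, with 0.65 and adjusted p = 0.00928 without libraries 5 and 7), whereas the 2 Gr-1lo groups overlapped (-0.03 ± 0.11, adjusted p = 0.916).

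The difference between the SP effects on Irf5 in the 2 subsets was itself called, at 0.80 ± 0.15 (adjusted p = 0.0132; 95% confidence interval 0.45 to 1.15). It was called in 9 of 13 alternatives and lost without library 7 (adjusted p = 0.056), library 9 (adjusted p = 0.068), library 12 (adjusted p = 0.056) or libraries 5 and 7 together (0.66, adjusted p = 0.0626). The B cell markers, which also rose in SP Gr-1hi, were given above. Of the 9 monocyte markers, 3 were called higher there, 1 lower and 5 neither. Their sum was lower in SP, at 1138 to 1290 CPM against 1385 to 1851 in BM. Csf1r, one of the 3 called higher, was at 375 and 264 CPM in SP Gr-1hi and 175 and 133 in BM Gr-1hi (1.05 ± 0.19, adjusted p = 0.00434). The part of B cell or monocyte markers in the Irf5 value was not tested. Fewer or more cells of a type and a change of RNA per cell cannot be told apart in these bulk libraries.

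Irf9, the DNA-binding subunit of ISGF3, followed the subset and not the tissue. It was at 249.9 and 229 CPM in SP Gr-1hi, 223 and 253 in BM Gr-1hi, 95.8 and 93.2 in SP Gr-1lo, and 103 and 104 in BM Gr-1lo. The log2 fold change between subsets was 1.20 ± 0.09 in BM (adjusted p = 4.11e-06) and 1.34 ± 0.09 in SP (adjusted p = 4.08e-06). The SP against BM value was 0.01 ± 0.09 in Gr-1hi (adjusted p = 0.961; 95% confidence interval -0.20 to 0.22) and -0.13 ± 0.09 in Gr-1lo cells (adjusted p = 0.476).

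**Figure D4:**
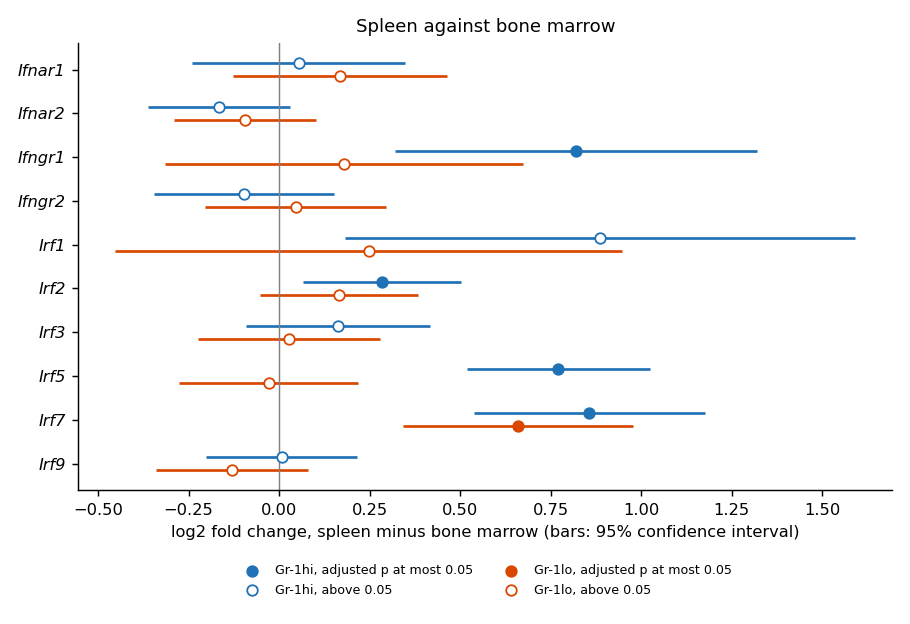
Log2 fold change of SP over BM for the 10 members in Gr-1hi and Gr-1lo cells, with 95% confidence intervals; filled points have an adjusted p of at most 0.05. Irf7 is filled in both subsets, at 0.86 and 0.66, Ifngr1, Irf2 and Irf5 in Gr-1hi cells alone, and the open points of Gr-1lo cells lie between -0.13 and 0.25.

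All 6 pairs of groups were contrasted to read the order of the levels. For Ifnar1, Ifngr2, Irf1 and Irf9, each Gr-1hi group was called higher than each Gr-1lo group, and neither pair of SP and BM was called. Irf2 had the same order with SP Gr-1hi above BM Gr-1hi, and Irf7 separated all 4 groups. For Irf5 the 2 Gr-1lo groups were not told apart, and BM Gr-1hi was lowest. For Ifngr1, BM Gr-1hi was lower than each of the other 3 groups, which did not differ by a call; SP Gr-1hi against BM Gr-1lo was -0.14 ± 0.21 (adjusted p = 0.568). For Ifnar2, the neighbours SP Gr-1hi and BM Gr-1lo were not told apart (0.14 ± 0.09, adjusted p = 0.165). For Irf3, SP Gr-1hi was above both Gr-1lo groups, and BM Gr-1hi was told apart from no group.

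Levels of different genes were compared only per length, as CPM per kb of the union of a gene's exons. In SP Gr-1hi, Irf1 came first at 293 CPM per kb, followed by Irf7 at 105 and Ifngr1 at 87.6, and Irf3 was last at 16.1. In BM Gr-1hi, Irf1 was again first at 158, followed by Irf7 at 57.8, and Irf5 was last at 12.4. In Gr-1lo cells Ifngr1 led, at 109 in SP and 96.6 in BM, followed by Irf5 at 85.2 and 86.8 and Irf1 at 79.6 and 67.1. Per kb of the longest transcript, Irf1 and Ifngr1 in SP Gr-1lo were nearly level, at 148 and 147, so the first place there depended on the length used. So did the order of Irf5 and Irf1, since Irf1 was then above Irf5, at 148 against 110 in SP Gr-1lo and 125 against 113 in BM Gr-1lo.

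As shares of the summed length-scaled RNA of 8 IRF genes (Irf1, Irf2, Irf3, Irf4, Irf5, Irf7, Irf8 and Irf9), Irf1 made up 57.4% and 56.1% in SP Gr-1hi and 45.4% and 55.0% in BM Gr-1hi, but 26.6% and 30.7% in SP Gr-1lo and 22.1% and 28.5% in BM Gr-1lo. Irf5 made up 4.14% and 4.05% in SP Gr-1hi and 4.48% and 3.62% in BM Gr-1hi, and 32.1% and 29.6% in SP Gr-1lo and 35.7% and 31.3% in BM Gr-1lo. Irf8, which directs monocyte and dendritic cell fate and is no member here, had 10.5% to 16.4% in Gr-1lo and 0.288% to 1.39% in Gr-1hi libraries. The share of Irf7 was 20.3% in both SP Gr-1hi libraries and 19.3% and 18.0% in BM Gr-1hi, against 13.2% and 12.7% in SP Gr-1lo and 9.03% and 8.40% in BM Gr-1lo. Irf1 and Irf7 thus had the largest shares in Gr-1hi cells, and Irf5 and Irf1 in Gr-1lo cells, followed by Irf7 in SP Gr-1lo and by Irf8 in BM Gr-1lo. The order in Gr-1lo cells depended on the length used. Per kb of the longest transcript, the mean share in SP Gr-1lo was 14.2% for Irf8 and 9.61% for Irf7. Irf1 then had a higher mean share than Irf5, at 33.9% against 25.4% in SP Gr-1lo and 29.5% against 27.3% in BM Gr-1lo.

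**Figure D5:**
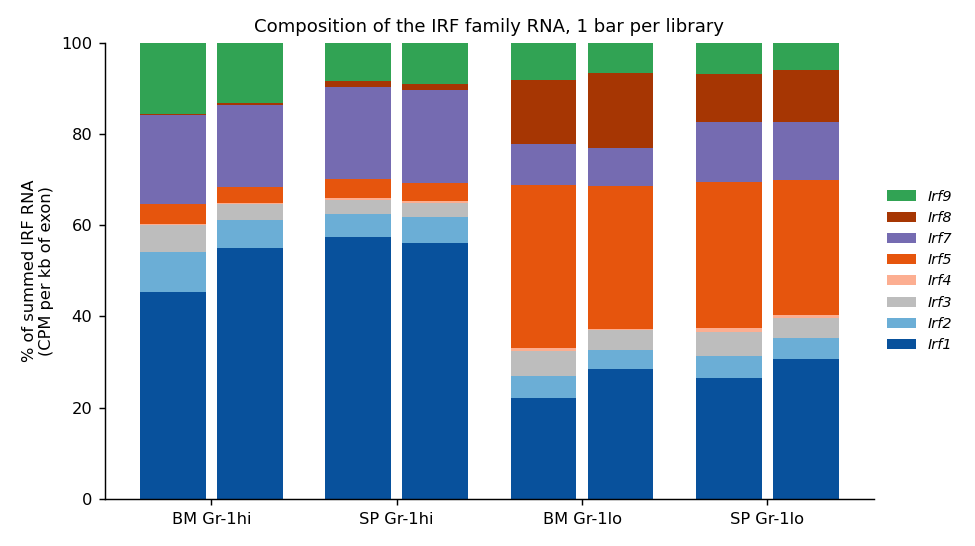
Share in percent of each IRF gene in the summed CPM per kb of exon of the 8 IRF genes drawn, 1 bar per library and 2 bars per group. Irf1 made up at least 45.4% of each Gr-1hi bar and at most 30.7% of each Gr-1lo bar, and Irf5 at least 29.6% of each Gr-1lo bar and at most 4.48% of each Gr-1hi bar.

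In 3 groups the 2 libraries differed more in Irf1 than in any other member, the exception being SP Gr-1hi, and interferon-stimulated genes differed with it. Irf1 was 1.64-fold higher in library 10 than in library 9, 1.62-fold higher in 12 than in 11, 1.31-fold higher in 8 than in 7, and 1.20-fold higher in 5 than in 6. Of the 20 genes listed as targets of IFN-gamma and IRF1, 20 were higher in library 10 than in 9, 19 in 12 than in 11, 20 in 8 than in 7 and 19 in 5 than in 6, where 50.2%, 66.0%, 48.3% and 42.2% of the 7466 to 8701 genes with a mean of at least 10 CPM in the 2 libraries were higher. Their summed level was 1.497-, 1.57-, 1.41- and 1.27-fold higher in the same order. Of the 24 genes stimulated by type I interferon, 23 were higher in library 10 than in 9, 19 in 12 than in 11, 24 in 8 than in 7 and 17 in 5 than in 6. Among the receptor chains, Ifnar2 was 1.03- to 1.09-fold higher in the library with more Irf1 in all 4 groups. Ifngr1 was so in 3, with 1.73-fold more in library 5 than in 6, and was 1.12-fold lower in 12 than in 11. Ifnar1 and Ifngr2 were higher in libraries 5 and 8 but lower in libraries 10 and 12. This spread between libraries is what the SE of 0.30 on Irf1 reflects.

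The genes around the members were described by lists, of which the counts past the same threshold are given. They are to be read against the shares of all genes given above: 20.1% higher and 13.9% lower in SP than in BM Gr-1hi, 4.88% and 0.697% in Gr-1lo, and between subsets 34.5% and 41.2% in BM and 33.6% and 37.8% in SP. Of 21 interferon genes, 15 had 0 counts in all 8 libraries, and the 20 other than Ifng together had 27 counts, at most 11 in any library, so that no type I interferon gene could be tested. Ifng, the ligand of IFNGR1 and IFNGR2, had 64 and 49 counts in SP Gr-1hi, 24 and 69 in SP Gr-1lo, 2 and 6 in BM Gr-1hi, and 0 in both BM Gr-1lo libraries, which allows up to 0.0615 and 0.0567 CPM there. Its highest level was 1.93 CPM. The T cell markers given above were higher in the same libraries, and their part in the Ifng counts was not tested. These limits cover counting error only.

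Of 11 genes of signalling at the receptor, 5 were higher and 1 lower in SP than in BM Gr-1hi cells, and 1 was higher and 0 lower in Gr-1lo cells. The median log2 fold changes were 0.56 and 0.16. Socs3, a feedback inhibitor of cytokine receptors, rose in both, by 2.06 ± 0.17 (adjusted p = 0.000208) and 0.92 ± 0.17 (adjusted p = 0.0161), and its interaction was 1.14 ± 0.24 (adjusted p = 0.0169). Usp18, which restrains signalling at IFNAR2, was higher in SP Gr-1hi by 0.70 ± 0.18 (adjusted p = 0.0191), and Stat2 by 0.76 ± 0.22 (adjusted p = 0.0339). Neither was called without libraries 5 and 7, at 0.64 (adjusted p = 0.10009) for Usp18 and 0.45 (adjusted p = 0.267) for Stat2, and the count was 1 higher and 0 lower. The phosphatase gene Ptpn11 fell by 0.49 ± 0.11 (adjusted p = 0.0119) and was not called without those libraries (adjusted p = 0.0895).

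Between subsets, 9 of the 11 were higher and 1 lower in Gr-1hi cells of both tissues, with medians of 0.77 in BM and 1.17 in SP. The counts were 7 and 1 in BM and 6 and 1 in SP without libraries 5 and 7. Jak1 rose most in BM, and Tyk2 was the gene that was lower. Jak1, used by all 4 chains' complexes, was at 642 to 716 CPM in Gr-1hi and 183 to 214 in Gr-1lo libraries, a log2 fold change of 1.88 ± 0.09 in BM (adjusted p = 3.2e-07) and 1.62 ± 0.09 in SP (adjusted p = 1.38e-06). Tyk2, the kinase bound to IFNAR1, was at 64.2 to 76.8 CPM in Gr-1hi and 198 to 210 in Gr-1lo libraries, a change of -1.47 ± 0.09 in BM (adjusted p = 1.11e-06) and -1.59 ± 0.09 in SP (adjusted p = 1.72e-06).

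Of 24 genes stimulated by type I interferon, 18 were higher and 0 lower in SP than in BM Gr-1hi cells, and 3 were higher and 0 lower in Gr-1lo cells, with medians of 0.90 and 0.57. Without libraries 5 and 7 the counts were 7 and 4. The largest rise among those of at least 10 CPM was that of Ifit2, an inhibitor of viral translation, in Gr-1hi cells (1.97 ± 0.40, adjusted p = 0.0114; 2.02 and adjusted p = 0.142 without libraries 5 and 7), and that of Rtp4 in Gr-1lo cells (0.93 ± 0.16, adjusted p = 0.0118). Between subsets the list split: 15 were higher and 6 lower in Gr-1hi cells of BM, and 18 and 5 in SP. The antiviral enzyme gene Rsad2 was at 185 to 363 CPM in Gr-1hi and 4.77 to 11.9 in Gr-1lo libraries. The GTPase gene Mx1 went the other way, at 0.561 to 4.37 CPM in Gr-1hi and 61.4 to 72.5 in Gr-1lo libraries. The log2 fold changes in BM were 5.30 ± 0.25 (adjusted p = 4.35e-07) for Rsad2 and -6.06 ± 0.29 (adjusted p = 3.93e-07) for Mx1.

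Of 20 genes listed as targets of IFN-gamma and IRF1, 7 were higher and 0 lower in SP than in BM Gr-1hi cells, and 2 were higher and 0 lower in Gr-1lo cells, with medians of 2.16 and 0.35. Without libraries 5 and 7 the counts were 2 and 2. The chemokine gene Cxcl10 rose by 4.83 ± 0.47 in Gr-1hi cells (adjusted p = 0.000524), from 0.673 and 1.49 CPM in BM to 31.7 and 29.1 in SP. Cxcl9, also a ligand of CXCR3, rose by 4.46 ± 0.46 in Gr-1lo cells (adjusted p = 0.00298), from 4.02 and 3.40 CPM to 47.7 and 116. Without libraries 5 and 7 the values were 4.79 for Cxcl10 and 4.95 for Cxcl9. Between subsets, 6 were higher and 7 lower in Gr-1hi cells of BM and 10 higher and 2 lower in SP, led upward by the checkpoint ligand gene Cd274 (3.03 ± 0.60 in BM, adjusted p = 0.00441, and 3.24 ± 0.60 in SP, adjusted p = 0.00349) and downward by the GTPase gene Iigp1 in BM (-4.24 ± 0.97, adjusted p = 0.0097). Leaving out libraries 5 and 7, the counts were 2 and 3 in BM and 2 and 2 in SP, and neither gene was called, with an adjusted p of 0.0541 in BM and 0.152 in SP for Cd274 and 0.0857 for Iigp1.

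Of 21 genes of sensing upstream of IRF3, IRF5 and IRF7, 8 were higher and 1 lower in SP than in BM Gr-1hi cells (5 and 0 without libraries 5 and 7), and 1 was higher and 0 lower in Gr-1lo cells. The medians were 0.24 and 0.21. Between subsets 8 were higher and 9 lower in Gr-1hi cells of BM and 7 and 9 in SP, shares near those of all genes. Ddx58, which encodes the RNA sensor RIG-I, was at 209 to 246 CPM in Gr-1hi and 29.3 to 55.9 in Gr-1lo libraries (2.80 ± 0.11 in BM, adjusted p = 1.61e-07). Tlr9, a DNA sensor that signals through IRF5 and IRF7, was at 1.46 and 2.39 CPM in BM Gr-1hi, 12.1 and 10.5 in SP Gr-1hi, and 42.6 to 67.9 in Gr-1lo libraries (-4.61 ± 0.24 in BM, adjusted p = 6.4e-07). Tlr9 rose in SP Gr-1hi by 2.56 ± 0.24 (adjusted p = 0.000332). The cyclic dinucleotide sensor gene Tmem173, which encodes STING, was at 6.47 to 20.3 CPM in Gr-1hi and 128 to 160 in Gr-1lo libraries. Tlr8 was lower in SP Gr-1hi, by 0.62 ± 0.21 on the log2 scale with an adjusted p of 0.0499, which held in 5 of 15 alternatives (adjusted p = 0.369 without libraries 5 and 7).

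A further list of 8 genes held receptor and IRF genes and genes of IRF2-binding proteins, which are not IRFs. Of these, 7 were tested. Between SP and BM, 3 were higher and 1 lower in Gr-1hi cells and 1 was higher and 0 lower in Gr-1lo cells, with medians of 0.23 and 0.14, and 3 were higher in Gr-1hi than Gr-1lo cells of each tissue, with 3 lower in BM and 1 in SP. Ifnlr1, the ligand-binding chain of the type III receptor, was at 202 to 253 CPM in BM Gr-1hi, 113 and 148 in SP Gr-1hi, and 2.89 to 8.61 in Gr-1lo libraries. In BM it was higher in Gr-1hi cells by 6.25 ± 0.21 (adjusted p = 1.29e-07), and it was lower in SP than in BM Gr-1hi by 0.80 ± 0.16 on the log2 scale (adjusted p = 0.00767). Irf8 was at 192 to 337 CPM in Gr-1lo, 51.0 and 46.6 in SP Gr-1hi, and 5.38 and 10.5 in BM Gr-1hi libraries, so that like Irf5 it was higher in Gr-1lo cells (-5.16 ± 0.35 in BM, adjusted p = 5.85e-06) and rose in SP Gr-1hi (2.63 ± 0.32, adjusted p = 0.00137; adjusted p = 0.0657 without libraries 5 and 7). Irf4, a factor of plasma and dendritic cells, rose in SP Gr-1hi by 3.03 ± 0.32 (adjusted p = 0.000461), from 1.38 and 1.11 CPM to 12.0 and 8.42. The IRF2-binding protein gene Irf2bpl rose by 3.72 ± 0.45 (adjusted p = 0.0017), from 2.80 and 2.68 CPM to 50.9 in library 5 and 21.5 in library 6. The 8 conventional dendritic cell markers summed to 35.1 to 43.1 CPM in SP Gr-1hi and 5.74 to 6.24 in BM Gr-1hi. Their part in these values was not tested.

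For each member, the 2 tested genes with the most similar profile were read from Pearson's r of log2 CPM over the 8 libraries, among 8587 genes with a mean of at least 10 CPM. The 8 points share the split by subset, and r is given as a description. Irf1 was most like Igtp (r = 0.997), an IFN-gamma-inducible GTPase gene, and Usp18 (0.994). Irf7 was most like Isg15 (0.996), the ubiquitin-like modifier induced by type I interferon, and Themis2 (0.992). Irf2 was most like Nufip2 and Ptpn6, the gene of the phosphatase SHP-1, Irf9 like Fnip1 and Bin3, and Ifngr2 like Ccnt1 and Pip5k1c, with r from 0.996 to 0.998. Ifnar1 was most like Plekhg2 and Zfp710 (both 0.993), and Irf5 like the predicted genes Gm45808 and Rps2-ps10 (0.9997 and 0.9995). For Ifnar2 (Asb8, 0.978, and Ctnnbip1, 0.971), Ifngr1 (Arhgap26, 0.978, and Pla2g15, 0.973) and Irf3 (Hdac5 and Gm45799, both 0.976) the likeness was weaker.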

How the data were processed

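RNA-seq libraries (TruSeq Stranded mRNA, NovaSeq) were taken from 4 groups of sorted cells, 2 libraries each. The authors deposited raw read counts per gene for 54188 genes, made with STAR and featureCounts on GRCm38 per the labels and the study's methods, and used quantile-normalized TPM in their own tests, a step not in the deposited counts. Groups came from the deposited labels. The members and gene lists were chosen with earlier results of these data known, so a pattern seen before is not independent support.

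Counts were fitted with edgeR 4.0.16 in R 4.3.3 (filterByExpr, which left 17650 genes; TMM; quasi-likelihood with robust dispersion; 1 term per group, 8 libraries, 4 residual degrees of freedom). Adjusted p is by Benjamini-Hochberg over the genes tested, and 95% confidence intervals used the t distribution of the fit. Alternatives used DESeq2 1.42.0, other scalings, no filter, an exact test in edgeR of TPM after quantile normalization, the 4 libraries compared, and left-out libraries. Lengths of exons are those of GENCODE M21, older than the release the study used, which holds 53947 of the 54188 identifiers. A library of 33453580 to 68316154 counts puts a count of 0 at no more than 3 counts, or 0.0348 to 0.124 CPM. Intervals and floors cover counting error only. The procedure was tested on simulated data.

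All 10 members are named. Of each pathway list, the called gene with the largest change in each direction and comparison (at least 10 CPM in the higher group) is named, with Stat2, Usp18, Irf8 and Irf4; a further gene under this rule is not reported here. For each member, the 2 most correlated genes are named. Markers are given as sums. Xist, Ddx3y, Ly6g and Csf1r check the labels. The alternatives for list genes were added after the data were seen.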

Additional observations from a re-analysis of the deposited data

Results flagged for a closer look

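The effect of SP against BM on Irf5 differed between the subsets by a test of the difference itself: the log2 fold change in Gr-1hi minus that in Gr-1lo cells was 0.80 ± 0.15 (edgeR quasi-likelihood test, adjusted p = 0.0132), with a rise in Gr-1hi and overlapping libraries in Gr-1lo cells. The interaction was called for 16.4% of all genes. By list, it was higher for 1 and lower for 0 of 11 signalling genes, and 3 and 1 of 7 further genes tested. The counts were 4 and 2 of 21 sensing genes, 2 and 0 of 24 type I genes, and 0 and 0 of 20 IFN-gamma targets. The naming rule took the called gene with the largest interaction in each direction. The passing of Socs3, Irf2bpl, Tlr9, Mx1, Ifnlr1 and Ddx58 was thus fixed in advance. Of the list genes named in the report, the same test passed for Socs3 (1.14), Irf4 (1.94), Irf8 (3.02), Irf2bpl (3.58), Tlr9 (2.21) and Mx1 (2.15). Their log2 fold change of SP over BM was higher in Gr-1hi than in Gr-1lo cells, where that of Irf8 was -0.40 and that of Mx1 -0.09. The test also passed for Ifnlr1 (-2.18) and Ddx58 (-0.61), which went the other way. Without libraries 5 and 7 it was not passed for Irf5 (adjusted p = 0.0626), Irf4 (adjusted p = 0.0918), Irf8 (adjusted p = 0.157), Mx1 (adjusted p = 0.0859) or Ddx58 (adjusted p = 0.0793). With 2 libraries in each group, single libraries could not be examined as outliers, and without libraries 5 and 7 each SP group kept a single library.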

How the results depend on the processing

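The study calls the BM cells autologous, but the labels do not say which libraries share a mouse. No paired analysis was therefore possible, and the libraries were fitted as independent. Of 730 values of single members under the alternatives, 630 kept their direction and their side of the threshold, 49 lost and 16 gained the call, and 35 turned direction. The counts of called members between subsets stayed within 1.5 times under every alternative run. Between SP and BM in Gr-1lo cells the count was 0 to 1 when each library was left out in turn. In Gr-1hi cells it was 2 to 4 when each library was left out (2 without library 9) and 2 without libraries 5 and 7 together. The interaction count was 2 with no filter on low counts, where Ifngr1 was added, 0 to 2 when each library was left out, and 0 without libraries 5 and 7.

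Every value that turned direction belonged to a difference that was not called, apart from Ifnar2 between subsets on quantile-normalized TPM (-0.11 in BM, -0.092 in SP). With RLE scaling and with DESeq2 the values were -0.011 and -0.023 for Ifngr2 and -0.029 and -0.041 for Irf3 between SP and BM in Gr-1lo cells, and -0.019 and -0.014 for Ifnar1 and -0.065 and -0.059 for Irf9 in Gr-1hi cells. Irf5 in Gr-1lo cells was 0.0090 with upper-quartile scaling and 0.017 with no filter. Without libraries 5 and 7 together, Irf3 in Gr-1lo cells was -0.035, Ifnar1 in Gr-1hi cells -0.074 and Irf9 in Gr-1hi cells -0.043. When each library was left out in turn, the SP against BM values in Gr-1lo cells ran from -0.0013 to 0.10 for Ifngr2, -0.058 to 0.64 for Irf1, -0.019 to 0.082 for Irf3 and -0.10 to 0.045 for Irf5. In Gr-1hi cells they ran from -0.18 to 0.13 for Ifnar1, -0.064 to 0.23 for Irf3 and -0.15 to 0.010 for Irf9. The interactions ran from -0.052 to 0.19 for Irf2, -0.11 to 0.19 for Irf3, -0.048 to 0.31 for Irf7 and -0.038 to 0.15 for Irf9. The cause of these turns was not tested.

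Counting error limits little here, since the least counted member had 909 counts in a library. The 2 libraries a group set the precision, as for Irf1 with its SE of 0.30.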
